A study of Mus musculus with 30 samples.

Results

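Mnx1, also called Hb9, is a homeodomain transcription factor of spinal motor neurons, and the regions described here are the places where Mnx1 ChIP-seq signal lay in chromatin marked by trimethylation of histone H3 at lysine 4 (H3K4me3) in wild-type induced motor neurons. They were chosen as the unique regions of the deposited Mnx1 peak list, on the main chromosomes, that shared 1 bp or more with a region of the deposited wild-type H3K4me3 list. This gave 3228 of 5793 Mnx1 regions; the other 2565 did not touch H3K4me3. Both lists chose the members, so Mnx1 enrichment and H3K4me3 are given as descriptions. The other histone marks, the RNA and the DNA letters did not enter the rule. They are not independent of it, because H3K4me3 marks the starts of transcribed genes.

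The study measured mouse embryonic stem (ES) cells and motor neurons induced from them, with 8 RNA-seq and 22 ChIP-seq libraries, inputs included. RNA was taken from wild-type ES cells and from 3 kinds of motor neuron: wild type (WT), HD and EH. HD and EH both carry the genotype label Mnx1KO, each group has 2 libraries, and the labels explain neither name. ChIP-seq came from WT and HD motor neurons and covered H3K4me3, H3K4 monomethylation (H3K4me1), H3K27 acetylation (H3K27ac), H3K27 trimethylation (H3K27me3) and H3K9 trimethylation (H3K9me3), with Mnx1 in WT alone. Every motor neuron culture was harvested at day 6 after induction as embryoid bodies. The medium held retinoic acid, SAG (which activates Smoothened in the hedgehog pathway) and doxycycline, each at 1 µM, with 5 µM of DAPT, which blocks Notch. What doxycycline induced is not given in the labels. Among the antibodies listed there is one to GFP but not one to Mnx1, which leaves the Mnx1 pull-down undescribed. The labels do not say that replicates were separate cultures, so p-values cover the spread between these libraries, which may be technical.

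H3K4me3 marks the starts of genes that are transcribed or ready to be, H3K27ac marks active promoters and enhancers, H3K4me1 is typical of enhancers and of the flanks of promoters, and H3K27me3 is laid down by Polycomb repressive complex at silent developmental genes. Homeodomain proteins bind short AT-rich sites built around the letters TAAT. In motor neurons Mnx1 works beside the LIM homeodomain factors Isl1 and Lhx3 and is known for keeping interneuron genes off.

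Of the 12 Mnx1 regions of highest enrichment at H3K4me3, 9 lay at coding gene starts. The promoter sequences of 7 strong regions are shown because they let a reader see which letters lie under the summit, the base of highest Mnx1 signal. The first 6 are the regions of highest Mnx1 fold enrichment whose summit fell in the promoter window of a gene (250 bases before to 50 after its start), and Anxa5 is the next such region that also held the full homeodomain core TAATTA. The letters are from RefSeq on GRCm38.p6 (the assembly of the mm10 build), each on its gene's own strand: chr2:91649868-91650167 on the plus strand for Arhgap1, chr6:52204538-52204837 on the minus strand for Hoxa5, chr5:88583263-88583562 on the plus strand for Rufy3, chr5:142817613-142817912 on the minus strand for Tnrc18, chr7:29906055-29906354 on the minus strand for Zfp27, chr7:108934165-108934464 on the plus strand for Eif3f and chr3:36475838-36476137 on the minus strand for Anxa5. Capitals mark every TAAT site on either strand, which reads ATTA when it is on the other one.
Arhgap1: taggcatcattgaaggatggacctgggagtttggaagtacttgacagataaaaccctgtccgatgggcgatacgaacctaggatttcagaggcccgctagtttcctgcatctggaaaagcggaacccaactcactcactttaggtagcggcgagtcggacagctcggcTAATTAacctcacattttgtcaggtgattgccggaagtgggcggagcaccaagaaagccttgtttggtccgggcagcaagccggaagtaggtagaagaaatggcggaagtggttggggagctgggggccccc
Hoxa5: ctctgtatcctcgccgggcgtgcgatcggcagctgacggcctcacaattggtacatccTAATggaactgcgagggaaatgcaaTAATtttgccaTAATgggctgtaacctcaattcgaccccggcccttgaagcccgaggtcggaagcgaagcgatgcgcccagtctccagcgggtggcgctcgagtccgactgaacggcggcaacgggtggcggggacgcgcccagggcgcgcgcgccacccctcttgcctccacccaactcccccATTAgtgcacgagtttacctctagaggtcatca
Rufy3: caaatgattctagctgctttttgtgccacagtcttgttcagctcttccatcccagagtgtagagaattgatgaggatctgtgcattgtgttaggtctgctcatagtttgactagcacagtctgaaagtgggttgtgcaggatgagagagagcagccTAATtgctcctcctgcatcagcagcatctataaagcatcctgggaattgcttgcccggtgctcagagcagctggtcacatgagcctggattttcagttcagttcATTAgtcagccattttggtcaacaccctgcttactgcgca
Tnrc18: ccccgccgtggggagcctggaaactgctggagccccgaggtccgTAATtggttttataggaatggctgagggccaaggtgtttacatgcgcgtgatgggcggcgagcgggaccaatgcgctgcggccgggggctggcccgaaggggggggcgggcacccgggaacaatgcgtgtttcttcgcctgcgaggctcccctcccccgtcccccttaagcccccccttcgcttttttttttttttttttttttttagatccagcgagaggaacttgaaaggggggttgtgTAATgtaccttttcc
Zfp27: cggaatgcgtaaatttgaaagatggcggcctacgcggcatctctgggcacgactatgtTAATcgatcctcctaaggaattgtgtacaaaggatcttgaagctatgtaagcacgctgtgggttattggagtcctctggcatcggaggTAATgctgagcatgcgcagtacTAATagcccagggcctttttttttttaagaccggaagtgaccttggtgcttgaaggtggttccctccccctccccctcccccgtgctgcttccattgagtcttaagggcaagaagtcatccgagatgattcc
Eif3f: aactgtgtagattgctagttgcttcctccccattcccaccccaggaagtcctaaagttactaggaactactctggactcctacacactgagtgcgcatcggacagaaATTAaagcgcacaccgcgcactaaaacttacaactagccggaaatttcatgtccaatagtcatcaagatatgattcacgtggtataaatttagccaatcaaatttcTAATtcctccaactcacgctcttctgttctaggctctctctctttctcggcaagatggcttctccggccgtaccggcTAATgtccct
Anxa5: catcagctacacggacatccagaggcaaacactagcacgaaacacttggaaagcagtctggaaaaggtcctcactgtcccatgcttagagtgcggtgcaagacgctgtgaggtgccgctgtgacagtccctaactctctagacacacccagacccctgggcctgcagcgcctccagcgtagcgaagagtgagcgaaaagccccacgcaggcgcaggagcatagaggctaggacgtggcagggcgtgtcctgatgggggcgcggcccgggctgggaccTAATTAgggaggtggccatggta

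In the Arhgap1 window the summit fell on base 151, counted from 1 at the 5′ end, and the centre of the nearest TAAT site, part of the TAATTA at base 169, lay 19.5 bases away. The Hoxa5 summit fell on base 271, with the centre of an ATTA 1.5 bases away. In Rufy3 the summit fell on base 152 and the nearest TAAT site was 6.5 bases away, in Tnrc18 it fell on base 51 with a TAAT site 4.5 bases away, and in Zfp27 it fell on base 176 with one 5.5 bases away. The Eif3f summit, on base 81, was 28.5 bases from its nearest TAAT site. The Anxa5 summit, on base 278, stood 1.5 bases from the nearest TAAT site within TAATTA. So 5 of these 7 summits lay within 15 bases of a TAAT site; the 7 were chosen by enrichment and, for Anxa5, by the motif itself.

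Across all 1609 promoter windows that held a member's summit, 120 (7.46%) had it within 15 bases of the centre of a TAAT. Of all bases in those windows, 6.15% lay as close. There is 1 window per gene, so a summit shared by several genes counts for each. By region, 1451 members had their summit in the window of the nearest start. By quartile of Mnx1 enrichment the share of windows with the summit near a TAAT was 6.32% in the lowest, 5.43% in the second, 7.07% in the third and 11.4% in the highest (380, 442, 410 and 377 windows). The full core TAATTA was near the summit in 9 windows, 0.559% against 0.263% of bases, and in 1.59% of windows in the highest quartile. The CCAAT box was near the summit in 10.7% of windows against 9.06% of bases, and the GC box GGGCGG in 18.1% against 16.5%. These shares are descriptions of sequence around summits, with no test.

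Most promoters with Mnx1 did not hold a full homeodomain core. Of 2402 genes with a member at a start of known strand, 2.29% had TAATTA on either strand of their 300-base window, against 2.21% of 8472 windows with H3K4me3 and no Mnx1 region and 5.29% of all 32851 windows in the table. The longer TAATTAG, which holds that core, was in 1.29%, against 0.614% and 2.0%. A TAAT, which every TAATTA also holds, was in 42.8% of the member windows, 37.6% of the H3K4me3 windows without Mnx1 and 58.0% of all windows. The windows with Mnx1 were rich in G and C: the median was 63.7% GC, against 61.7% with H3K4me3 alone and 52.7% over all windows, with a median of 25 CpG dinucleotides against 20 and 7. The sites of general promoter factors were common there. GGGCGG, read by Sp and Klf zinc finger proteins, was in 76.0% against 66.7% and 35.7%. CCAAT, read by NF-Y, was in 45.5% against 36.2% and 37.4%. CCGGAAG, read by ETS factors, was in 20.6% against 16.4% and 8.86%, and GCATGCGC, read by Nrf1, in 7.7% against 4.83% and 2.71%. AAGATGGC, read by Yy1, was in 5.79% against 4.0% and 2.75%, TGACGTCA of cyclic AMP responsive promoters in 3.75% against 3.19% and 1.79%, and the E-box CACGTG in 11.6% against 10.1% and 7.15%. The neuronal E-box CAGCTG went the other way, with 12.2% against 15.3% and 16.3%. The Onecut core ATCGAT was in 1.21%, 0.767% and 0.925%. Each motif was searched on both strands, and a match is no evidence of binding. The member windows are of coding genes, while the 32851 windows also hold genes that are not protein-coding. Over the 21263 coding windows the median was 56.3% GC with 13 CpG. There TAATTA was in 4.53%, TAAT in 51.8%, GGGCGG in 46.2%, CCAAT in 38.2%, CCGGAAG in 11.6% and CAGCTG in 15.6%. For a gene with several starts, the member window was the one nearest the Mnx1 summit. The H3K4me3 window without Mnx1 was the one of lowest coordinate, so these sets of windows were not chosen alike.

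Mnx1 regions at H3K4me3 were centred just upstream of gene starts. Of the 3228, 2570 (79.6%) lay within 1 kb of a protein-coding gene start, measured from the region's edge, against 0.936% of the Mnx1 regions without H3K4me3. A further 88 were at the start of a long non-coding RNA only, 325 lay inside a coding gene and 245 outside one. For 401 of the 2570 the strand was not in the promoter table and either end of the gene stood for its start; without them 67.2% lay at a start. For the 2169 with a known strand, the summit was at a median of -72 bp from the nearest start, 70.2% were before it and 83.9% were within 300 bp. Of these, 617 summits lay in the 100 bp before the start and 480 in the 100 bp before that, as the plot of summit positions shows.

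**Figure D1:**
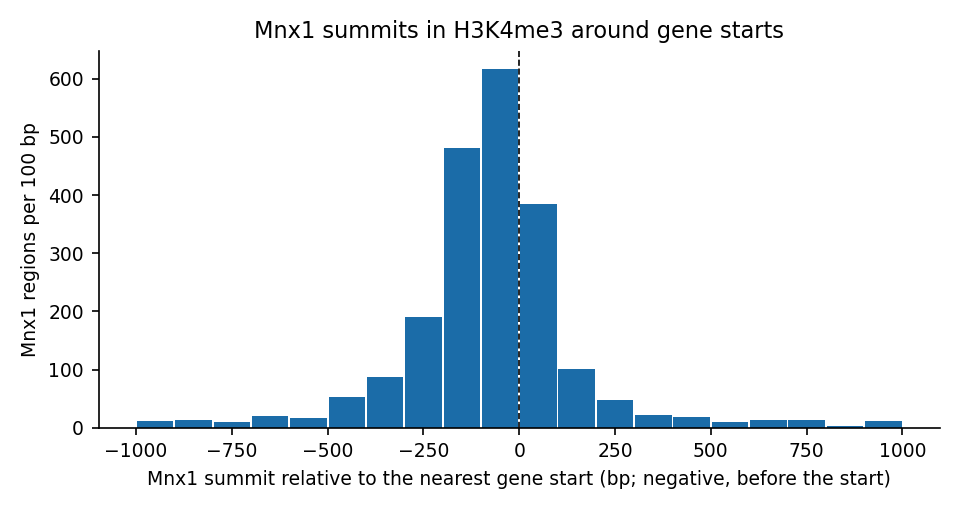
Number of Mnx1 regions at H3K4me3 (vertical axis, per 100 bp) by the distance of their summit from the nearest coding gene start of known strand (horizontal axis, bp; negative values lie before the start; only distances of up to 1000 bp are drawn). The highest bar, of 617 regions, is the one just before the start, and the median over 2169 regions was -72 bp.

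Most members lay inside the H3K4me3 region and not at its edge. In all, 2957 members (91.6%) lay wholly within H3K4me3, and 69.0% of summits were in the central 50% of the H3K4me3 region's length. The members were narrow, with a median width of 537 bp (400 to 1547 bp), and their Mnx1 fold enrichment over background, as the authors' peak caller gave it, had a median of 3.835 (2.217 to 20.13), close to the 4.081 of Mnx1 regions without H3K4me3. Only 7 reached a fold of 10. Of 21286 H3K4me3 regions, 3127 (14.7%) carried Mnx1, of which 3026 carried 1 region and 101 carried 2 or 3.

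The H3K4me3 regions with Mnx1 were broad and strong. Among those that held a coding start, the median width was 2806 bp (n = 2555), against 2125 bp for the 10122 that held a start without Mnx1. The median H3K4me3 fold was 63.09 against 47.97. Of those with Mnx1, 95% overlapped H3K27ac in WT against 62.1%, and 11.7% overlapped H3K27me3 against 35.2%. Starts of different genes on both strands lay in or within 1 kb of 310 of the 2157 with known strands (14.4%), and of 579 of the 8186 without Mnx1 (7.07%). The regions with Mnx1 are the wider ones, and the part of width in these shares was not tested. Of all 5793 Mnx1 regions, with or without H3K4me3, 17 lay on chromosome X. There 15 of 672 H3K4me3 regions (2.23%) carried Mnx1, against 15.1% on the other chromosomes, where the median H3K4me3 fold was 34.2 against 28.9 on X. Arhgap36, a regulator of hedgehog and protein kinase A signalling in motor neurons, was one of those on X.

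The member of highest enrichment, chr2:91649602-91650483, had a fold of 20.13 and a -log10 q of 188, and lay between the divergent starts of Arhgap1, a GTPase activating protein, and Zfp408, a zinc finger protein, 100 bp before the first and 227 bp before the second. It was marked by H3K27ac in WT and HD and by neither H3K4me1 nor H3K27me3. The next, chr4:124477819-124478539 with a fold of 13.68, was unlike a promoter. It shared 214 bp with a weak H3K4me3 region (fold 4.1), its nearest coding start was that of Pou3f1, a POU homeodomain factor of motor neurons, at 179107 bp, it overlapped H3K4me1 and H3K27me3 in WT, and neither H3K4me3 nor H3K27me3 was listed there in HD. The third, chr17:62882469-62883664 with a fold of 12.38, lay 1152 bp from the start of Efna5, an ephrin ligand for Eph receptors in axon guidance. The Hoxa5 promoter, chr6:52204155-52204992, followed with 10.63; Hoxa5 is a homeobox gene of the cervical spinal cord. The other 8 of the 12 highest ran from 10.24 to 9.37. They lay at Anapc15 (a subunit of the anaphase promoting complex), Ppm1b (a protein phosphatase), Rufy3 (a neuronal protein of axon growth), Larp4 (an RNA-binding protein), Tnrc18, Zfhx4 (a zinc finger homeobox factor) and Zfp27, and 1197 bp from Tle3, a Groucho corepressor. Of the 12, 11 overlapped H3K27ac in WT and in HD, the exception being the region far from Pou3f1.

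At the edge of the rule, the 3 members of smallest overlap shared 9 bp (Uts2b, a urotensin peptide), 30 bp (inside Actn4) and 34 bp (Jam2) with H3K4me3, with Mnx1 folds of 4.19, 5.54 and 4.05. The 3 Mnx1 regions nearest outside it stood 37 bp (fold 2.98, nearest start Etv3l), 72 bp (4.07, inside Tenm3) and 86 bp (3.96, inside Cdh6) from H3K4me3.

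Most members lay in acetylated chromatin, and fewer in H3K4me1. In WT 92.2% overlapped H3K27ac, against 58.5% of the Mnx1 regions without H3K4me3, whereas 37.2% overlapped H3K4me1, against 92.8%. H3K27me3 overlapped 185 members (5.73%) and H3K9me3 15 (0.465%), against 0.312% and 0.039%. Where 50% or more of the Mnx1 region had to overlap the mark, 14.6% had H3K4me1 and 3.56% H3K27me3 in WT, and 10.3% and 0.991% in HD. The commonest combination was H3K27ac with neither H3K4me1 nor H3K27me3 (1908 members), followed by H3K27ac with H3K4me1 (940); 69 had none of the 3. Since each mark has 1 deposited list per genotype, these shares have no replicate spread, and fold values are compared only within a list. From the lowest to the highest quartile of Mnx1 fold, the share with H3K4me1 was 32.7%, 35.9%, 37.1% and 43.1%, and the share with H3K27me3 was 3.47%, 5.82%, 6.32% and 7.31%. The median width of the members rose along the same quartiles, at 469, 501, 539 and 650 bp. A wider region touches a mark more readily at 1 bp of overlap, and the part of width was not tested. The share at a coding start was 82.3% in the lowest quartile and 74.7% in the highest. H3K27ac did not follow the quartiles (90.5 to 93.4%).

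**Figure D2:**
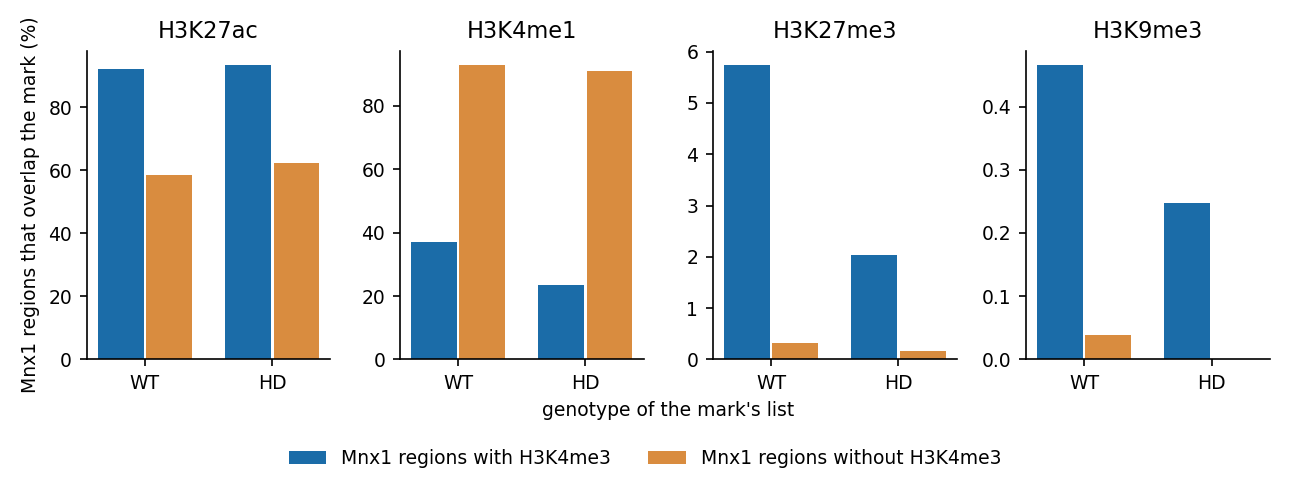
Share of Mnx1 regions (vertical axis, %; each panel has its own scale, from 0) that overlapped each of 4 histone marks by 1 bp or more, for the 3228 regions with H3K4me3 and the 2565 without, in the WT and HD lists. H3K27ac covered 92.2% of the regions with H3K4me3 in WT and 93.3% in HD, while H3K4me1 covered 37.2% and 23.5% and H3K27me3 5.73% and 2.04%.

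In HD most of these regions were again listed with the active marks. H3K4me3 was listed at 3144 (97.4%) and H3K27ac at 93.3%; of the 2975 members with H3K27ac in WT, 99.2% had it in HD, while over the whole WT H3K27ac list 87.2% of regions had a counterpart in HD. All 2555 H3K4me3 regions that held a coding start and carried Mnx1 were also listed in HD, as were 98.5% of those without Mnx1. Members were instead placed at a start within 1 kb of their edge. The 84 members without H3K4me3 in HD were, but for 4, away from coding starts; those 4, named after their values were seen, were at Prss22, Vstm2l, Alyref2 and Ptpa. The marks that were listed less often in HD were H3K4me1, at 713 of the 1201 members that had it in WT (59.4%; whole list 68.4%), H3K27me3, at 61 of 185 (33.0%; whole list 51.0%), and H3K9me3, at 7 of 15 (46.7%; whole list 44.9%). The member and whole-list shares, those of H3K27ac included, are not alike in unit. A member was kept if its own short region touched the HD list. A whole-list region was kept if any part of it did. Over whole H3K4me3 regions with Mnx1, H3K27me3 overlapped 388 in WT and 210 in HD, and H3K4me1 3077 and 3003. Over those without Mnx1 the counts were 6582 and 4919, and 15968 and 13993. HD lists were shorter than WT lists for H3K4me1 (90369 against 110851 regions), H3K27me3 (5729 against 9365) and H3K9me3 (15427 against 21120), and whether that comes from the chromatin or from the depth of the ChIP libraries cannot be told apart with 1 list each. H3K27ac in WT carries a caveat: the peaks in that list are named K27ac_KO, against its label, and the label was followed.

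The Polycomb-marked members included cell identity genes. Of 185 with H3K27me3 in WT, 109 were at coding starts, and Mnx1's own promoter was one of them: chr5:29478395-29478952, with a Mnx1 fold of 5.73 and the summit 228 bp before the start, lay in an H3K4me3 region of 14635 bp with H3K27ac, and H3K27me3 was listed there in WT and not in HD. Hoxa5 and the Notch effector Hes1 had the same pattern, as did Sall1, a zinc finger repressor, and Mafa, a basic leucine zipper factor, though the Mafa region had no H3K27ac in WT. At Chat with Slc18a3, the paired genes for acetylcholine synthesis and its vesicular loading, at the interneuron selector Tlx3, at Hoxc6 and at Klf4, H3K27me3 was listed in both genotypes. Of the 15 members with H3K9me3, 8 were away from starts. The 7 at coding starts, named after their values were seen, were those of Peg10 with Sgce and Zrsr1 with Commd1, which are known imprinted loci, and of Crlf2, Six2, Pgk1, Zfp36l1 and Tlx3.

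By gene, 2895 of 13862 coding genes with H3K4me3 at their start (20.9%) carried a member there. Lists of genes with shared roles were set beside this share, as a description. Of the 2895 genes, 2402 had a start of known strand. For the rest either gene end stood for the start, so the member may lie at the far end of the gene. Genes named here without a known strand include Zfhx4, Jam2, Hspa13, Hspa9, Snrpb, Hes1, Hoxb5 and Hoxc6. Genes of the Polycomb and Trithorax complexes, which write and read H3K27 and H3K4 methylation, carried Mnx1 at 16 of 36 (44.4%), with Kmt2a, an H3K4 methyltransferase, at a fold of 7.43, Bmi1 at 5.85 and Mtf2 at 5.46, both Polycomb proteins. Chaperones and chaperonin subunits had 27 of 71 (38%), led by Hspa13 at 8.21, Cct8 at 7.42 and Hspa9 at 6.63. Translation initiation factors had 16 of 49 (32.7%), with Eif3f at 9.0, Eif2ak3 at 6.09 and Eif1ad at 5.42. Mitochondrial ribosomal proteins had 20 of 76 (26.3%, highest Mrpl10 at 4.93), cytosolic ribosomal proteins 19 of 75 (25.3%, among them Rps19 at 5.19), and Zfp zinc finger genes 73 of 335 (21.8%, highest Zfp408). Splicing factors (7 of 33, highest Snrpb at 5.93), the proteasome (9 of 44, Psma1 at 6.36), the cell cycle (5 of 30, Mcm7 at 5.82), immediate early genes (5 of 23, Fosl2 at 4.89) and pluripotency genes (3 of 15, Lin28a at 4.78) had shares of 16.7 to 21.7%. Complex I had 5 of 36, the highest Ndufs8 at 4.05, and histones 4 of 43, the highest H3c6 at 5.74.

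Genes of the spinal motor neuron list carried Mnx1 at some starts, and motor column, pool and interneuron genes at few. Of 26 spinal motor neuron genes 8 did (30.8%): Lmo4 (a LIM-only protein, fold 6.41), Mnx1 (5.73), Chat and Slc18a3 (one region, 5.59), Isl2, Ldb1 (the LIM cofactor), Neurog2 and Onecut2. Among 29 pan-neuronal and synaptic genes 6 did, with the RNA-binding protein gene Elavl2 at 6.1 and the zinc finger genes Myt1 at 4.68 and Myt1l at 4.09. Of 31 spinal interneuron factors only Tlx3 did, at 2.99. Of 18 motor column and pool genes only Meis1 did, at 3.75, of 17 neural progenitor genes only Hes1, at 3.47, and of 18 GABA and glycine genes 2 did, among them the synaptic scaffold Gphn (3.27). Hox genes had 4 of 38 (10.5%): Hoxa5, Hoxb5 (5.76), Hoxc6 (4.5) and Hoxb4. None of 6 nicotinic receptor, 4 trophoblast and 8 glial genes with H3K4me3 at their start did. The list plot orders these shares.

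**Figure D3:**
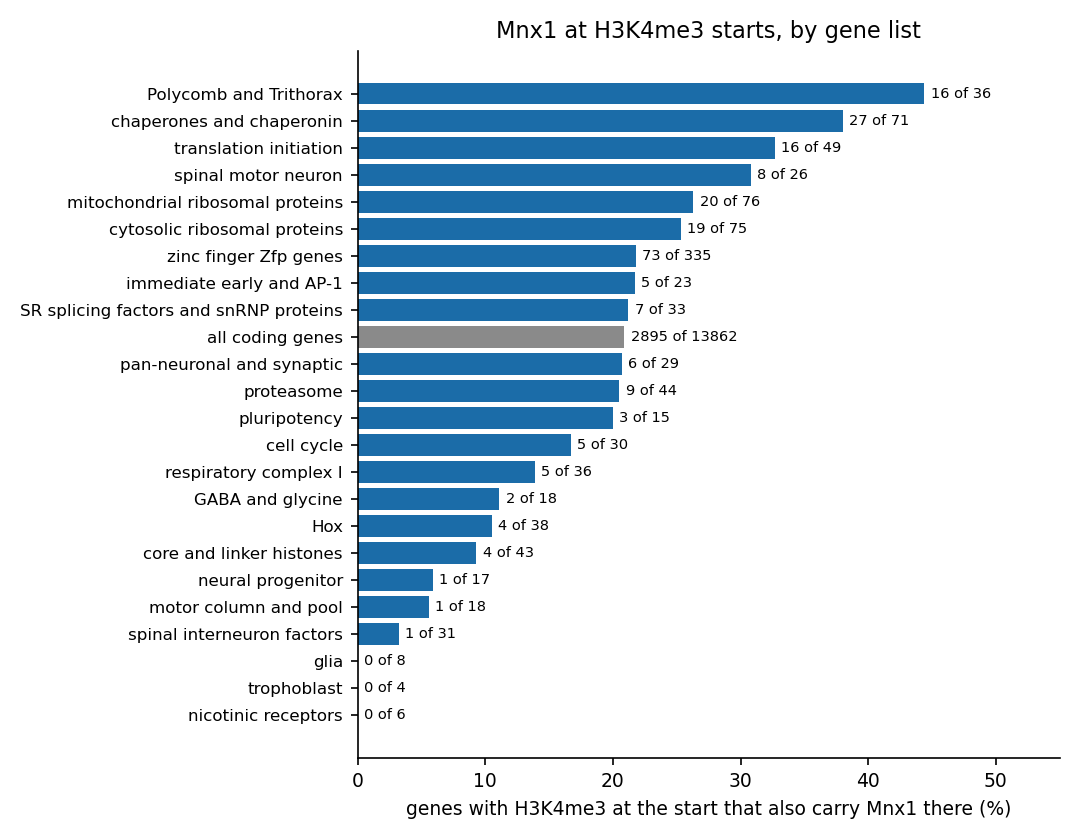
Share of the genes of each list with H3K4me3 at their start in WT that also carried an Mnx1 region there (horizontal axis, %; counts beside the bars; grey, all coding genes). Polycomb and Trithorax genes, at 16 of 36, stood above the 20.9% of all coding genes, and spinal interneuron factors, at 1 of 31, below it.

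Genes with Mnx1 at an H3K4me3 start were among the more highly expressed. Of the 2895, 2854 matched an RNA identifier, and in WT motor neurons their median level was 36.4 TPM (transcript counts per unit of gene length, scaled to the same library total), with 36.6 and 36.2 in the 2 libraries, against 16.2 TPM for the 10826 genes with H3K4me3 and no member. In all, 98.6% stood at 1 TPM or more against 84.9%. In ES cells, which have little Mnx1, the same genes had a median of 22.5 TPM and the others 7.66. The edgeR comparison of WT motor neurons with ES cells, which scales libraries differently, gave median log2 fold changes of -0.04 and 0.17 for these sets. The TPM medians are therefore not read as a change between the cell types. The level did not follow Mnx1 enrichment closely: the medians by quartile of Mnx1 fold were 35.7, 35.3, 35.3 and 40.0 TPM. The 110 genes whose member overlapped H3K27me3 were lower, at 17.0 TPM. The 5 highest were the elongation factor gene Eef1a1 (7440 and 7350 TPM in the 2 WT libraries), the tubulin gene Tuba1a (7350 and 7230), and the ribosomal protein genes Rpl13a (2540 and 2740), Rpl41 (2630 and 2620) and Rps24 (2400 and 2420). Summed levels of marker genes placed the cultures: motor neuron markers were at 1320 to 1550 TPM in WT, 1310 to 1510 in HD and 1680 to 2000 in EH, and at 2.14 to 2.18 in ES cells. Glial markers were at 2.15 to 3.14 TPM in WT, 4 trophoblast markers at 427 to 499 TPM in WT and 397 to 527 in HD but 21.5 to 80.8 in EH, and 3 ES cell markers at 19.4 to 51.5 over all motor neuron libraries.

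Mnx1 RNA does not separate the lines labelled as knockouts from WT. It was at 465 and 416 CPM (counts scaled to library size) in WT, 430 and 368 in HD, and 538 and 678 in EH. HD overlapped WT and EH stood above both, with a log2 fold change of -0.14 ± 0.15 (SE, n = 2 a group) in HD and 0.46 ± 0.15 in EH (edgeR adjusted p = 0.977 and 0.064). Gene counts do not show a small deletion or a frameshift, so the labels were followed.

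In HD, almost no gene with Mnx1 at its H3K4me3 start passed the test. Of 2821 tested, 1 was called in HD minus WT (0.0354%), against 27 of all 15565 genes tested (0.173% of all; 0.135% higher and 0.0385% lower). At an unadjusted p under 0.05 there were 103 (3.65%), against 5.6% of all genes, and DESeq2 called 18. Of the 108 tested genes whose member overlapped H3K27me3 in WT, 0 were called and 17 (15.7%) had an unadjusted edgeR p under 0.05. These were 14 of 74 where HD did not list H3K27me3 (18.9%) and 3 of 34 where it did (8.82%). The median log2 fold change of the member genes was -0.01, the same as over all genes. The gene called was Lix1, a gene of limb and neural expression, at 17.2 and 17.8 CPM in WT, 7.32 and 7.69 in HD, and 15.8 and 17.7 in EH. HD stood below every other motor neuron library, and Lix1 fell by 1.22 ± 0.15 on the log2 scale (edgeR adjusted p = 0.0498), a call that was lost without either library of HD or of WT (adjusted p of 0.35 to 0.563). Its member, chr17:17402413-17403019, had a Mnx1 fold of 4.85, with H3K27ac listed in WT and not in HD. In a fit of HD and WT alone 42 of 2813 member genes passed (1.49%; 36 higher and 6 lower), against 2.21% of all genes (1.71% higher and 0.507% lower).

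In EH more genes passed. Of 2821, 499 did (17.7%), against 21.2% of all genes: 292 were higher (10.4%, against 9.61% of all) and 207 lower (7.34%, against 11.6% of all). Of the 499, 67 changed by 2-fold or more, against 1412 of the 3301 called over all genes and 905 of the 2186 called with H3K4me3 and no member, and the median log2 fold change was 0.03 against 0.00. The share called was 16.1%, 17.3%, 19.6% and 17.8% from the lowest to the highest quartile of Mnx1 fold. The count rests on each WT library: without WT replicate 1 it was 9 (0.319% of members, 0.95% of all genes) and without WT replicate 2 it was 7 (0.248%, 0.598% of all). Without EH replicate 1 it was 1062, and the lower share of members was gone (37.6%, 37.0% of all). Without either HD library it was 262 (9.27% and 9.28%, 12.8% and 12.9% of all). Among the 108 tested genes whose member overlapped H3K27me3 in WT, 39 were called (36.1%), 13 higher and 26 lower. The share at H3K27me3 starts without Mnx1 was not taken, so 36.1% is not read as a trait of the members. Marker levels of trophoblast cells and library depth, 39685395 and 39761579 expected counts in EH against 13899577 and 13916957 in WT and 11167544 and 12435800 in HD, moved with EH, and their part in these changes was not tested. In these bulk cultures, fewer cells of a type and less RNA per cell cannot be told apart.

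The named genes that rose in EH were led by Uts2b, the urotensin 2B peptide gene. It was at 10.4 and 7.84 CPM in WT, 8.58 and 8.42 in HD, and 40.6 and 66.6 in EH, so EH stood apart and HD lay within the WT range (2.56 ± 0.27, edgeR adjusted p = 0.00492). Its region is the one with 9 bp of H3K4me3. Nhlh2, a neuronal basic helix-loop-helix factor, was at 27 and 28.8 CPM in WT, 46.3 and 39.5 in HD, and 81.7 and 161 in EH (EH minus WT 2.12 ± 0.30, edgeR adjusted p = 0.00784). Both lines stood above WT there, EH further. Arhgap36 was at 124 and 99.8 CPM in WT, 76.4 and 72.4 in HD, and 392 and 505 in EH (2.00 ± 0.16, edgeR adjusted p = 0.00279), with HD below WT and EH above. Crp, the C-reactive protein gene, was at 16.1 and 14.4 CPM in WT, 29.9 and 26.9 in HD, and 29.1 and 59.3 in EH (1.54 ± 0.32, edgeR adjusted p = 0.0191), and here EH overlapped HD. Lamc1, a laminin chain, rose by 1.46 ± 0.34 (edgeR adjusted p = 0.0272) with EH libraries far apart, at 375 and 867 CPM. Without EH replicate 2 the change was 0.75 for Lamc1 and 0.94 for Crp. Kdm4d, a histone demethylase gene, rose by 1.76 ± 0.49 at levels below 1.5 CPM (edgeR adjusted p = 0.0467), a call that DESeq2 did not make (adjusted p = 0.142).

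Of those that fell in EH, Mafa changed most. It was at 42.8 and 45.7 CPM in WT, 75.4 and 71.7 in HD, and 3.48 and 3.19 in EH (-3.73 ± 0.12, edgeR adjusted p = 0.000165). The lines went to opposite sides of WT, with HD 0.73 ± 0.10 above it and not past the threshold (edgeR adjusted p = 0.0573). Id4, an inhibitor of basic helix-loop-helix factors, was at 65.7 and 82.6 CPM in WT, 85 and 88.2 in HD, and 22.7 and 28.3 in EH (-1.54 ± 0.15, edgeR adjusted p = 0.00432), with EH below WT and HD just above it. Pinlyp, a phospholipase inhibitor gene, fell by 2.51 ± 0.53 at about 2 CPM and below (edgeR adjusted p = 0.0205), while Crlf2, a cytokine receptor subunit, changed by -2.10 ± 0.27 (0.0062). Tmem116, a membrane protein gene, fell by 1.79 ± 0.28 (0.00922) and Mpzl2, an adhesion protein gene, by 1.56 ± 0.37 (0.0284). In the EH libraries each of these stood below every WT and HD library, as the plot of named genes shows. For Lamc1, Mafa and Mpzl2 the strand was not known, and either gene end stood for the start. Of the 12 genes named in EH, Mafa, Arhgap36 and Id4 kept their call without any 1 library; the other 9 lost it without at least 1 of the WT libraries (adjusted p of 0.0545 to 0.217 where lost).

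Setting HD against EH directly, 519 member genes passed (18.4%, against 21.2% of all genes). Taking both lines together against WT, 6 of 2821 passed (0.213%, against 0.816% of all): 2 higher (against 0.283% of all genes) and 4 lower (against 0.533%). Sall1 was at 62.4 and 67.1 CPM in WT, 76.9 and 85.3 in HD, and 183 and 162 in EH, and rose by 0.87 ± 0.09 (edgeR adjusted p = 0.0257). Arl4a, a small GTPase of the Arf family, was at 26.2 and 26.3 CPM in WT, 38.2 and 37.7 in HD, and 40.5 and 39.4 in EH, and rose by 0.57 ± 0.09 (edgeR adjusted p = 0.0473). Its lines stood together above WT. Negr1, a neuronal adhesion molecule, was at 25.5 and 28.0 CPM in WT, 17.0 and 15.1 in HD, and 15.0 and 16.6 in EH, and fell by 0.75 ± 0.12 (edgeR adjusted p = 0.0497). Here too the lines stood together, below WT. Slitrk1, a synaptic adhesion protein, was at 71.0 and 59.8 CPM in WT, 50.3 and 45.5 in HD, and 34.8 and 36.6 in EH, and fell by 0.66 ± 0.10 (edgeR adjusted p = 0.048). The other 2 were Mafa and Jund, an AP-1 subunit (-0.62 ± 0.07, edgeR adjusted p = 0.0277), whose lines did not move alike: for Mafa HD lay above WT and EH below it, and for Jund HD (155 and 166 CPM) overlapped WT (161 and 150) with EH below (63.5 and 64.4). These calls were lost when any 1 library of HD or WT was left out, as were the calls over all genes. Leaving out 1 EH library raised the count among members and over all genes alike.

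**Figure D4:**
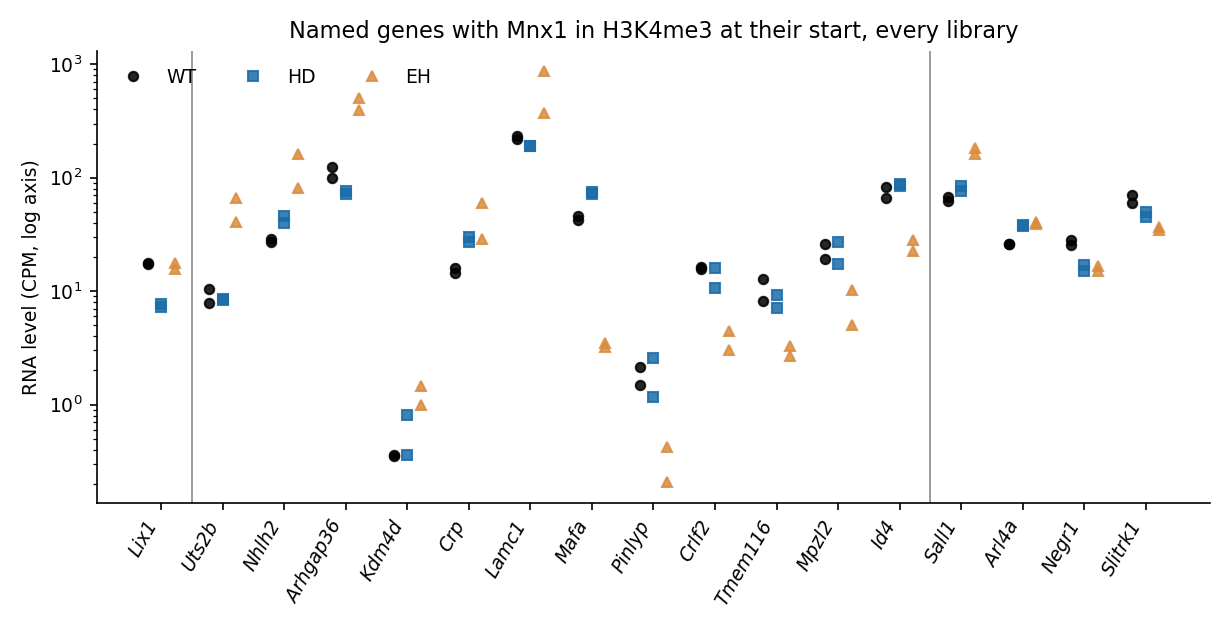
RNA level of each named gene with Mnx1 at an H3K4me3 start in every motor neuron library (vertical axis, CPM on a log axis; black circles, WT; blue squares, HD; orange triangles, EH), for genes named in HD minus WT (left of the first line), EH minus WT (middle) and both lines minus WT (right). Mafa in EH lies at 3.48 and 3.19 CPM against 42.8 and 45.7 in WT, while Arl4a and Negr1 moved alike in HD and EH. For Lamc1, Mafa and Mpzl2 either gene end stood for the start.

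Some genes of the role lists with Mnx1 at their start passed in EH. Lix1, the 1 gene called in HD, is in none of these lists. Hoxa5 stood at 181 and 195 CPM in WT, 274 and 257 in HD, and 79.8 and 101 in EH, with HD above WT and EH below it (EH minus WT -1.06 ± 0.13, edgeR adjusted p = 0.0059; HD minus WT 0.49 ± 0.13, 0.374). Hoxc6 fell in EH by 0.94 ± 0.19 (edgeR adjusted p = 0.0176), and of 4 Hox genes with a member 2 fell; over the 27 Hox genes tested, with or without Mnx1, 12 fell and 1 rose. Jund fell by 1.28 ± 0.09 (edgeR adjusted p = 0.00243). Meis1, a Hox cofactor, rose by 1.08 ± 0.19 (edgeR adjusted p = 0.0129) and Lin28a, an RNA-binding protein of early cells, by 1.13 ± 0.20 (0.0125). Lmo4 rose by 0.45 ± 0.12 (edgeR adjusted p = 0.0433) and was the 1 of 8 motor neuron genes with a member that passed in EH, where 10 of the 26 genes of the whole list rose. Chat, at 177 and 134 CPM in WT, 104 and 104 in HD, and 126 and 156 in EH, did not pass (edgeR adjusted p = 0.435 in HD and 0.554 in EH). Of 16 Polycomb and Trithorax genes with a member 2 rose in EH (whole list 5 of 37), and of 25 chaperone genes tested 4 rose (whole list 5 of 69, with 6 lower). Of 73 Zfp genes with a member 10 rose and 7 fell (whole list 43 and 15 of 377). Over all genes 9.61% were higher in EH and 11.6% lower.

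Between ES cells and WT motor neurons most genes differ, and those with Mnx1 at their start differed about as often as others: 2199 of 2838 tested (77.5%), against 75.3% of all 17770 genes. They divided evenly, with 1093 higher in motor neurons (38.5%, against 38.8% of all genes) and 1106 lower (39.0%, against 36.5% of all). Changes of 2-fold or more made up 1158 of the 2199, against 9629 of the 13382 over all genes. The median log2 fold change was -0.04. The role lists differed in direction, and for those given here the whole list, with or without Mnx1, went the same way as its members. All 19 cytosolic ribosomal protein genes with a member were lower in motor neurons (median log2 fold change -1.66; whole list 76 of 76), as were 19 of 20 mitochondrial ribosomal proteins (whole list 68 of 77), 14 of 16 translation initiation factors (41 of 51) and all 7 splicing factors (32 of 34). The 6 pan-neuronal genes with a member were all higher (median 7.08; whole list 29 of 30), as were the 4 Hox genes (26 of 29) and 7 of 8 motor neuron genes (23 of 26). The 110 genes with H3K27me3 at the member were more often higher (72) than lower (20).

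**Figure D5:**
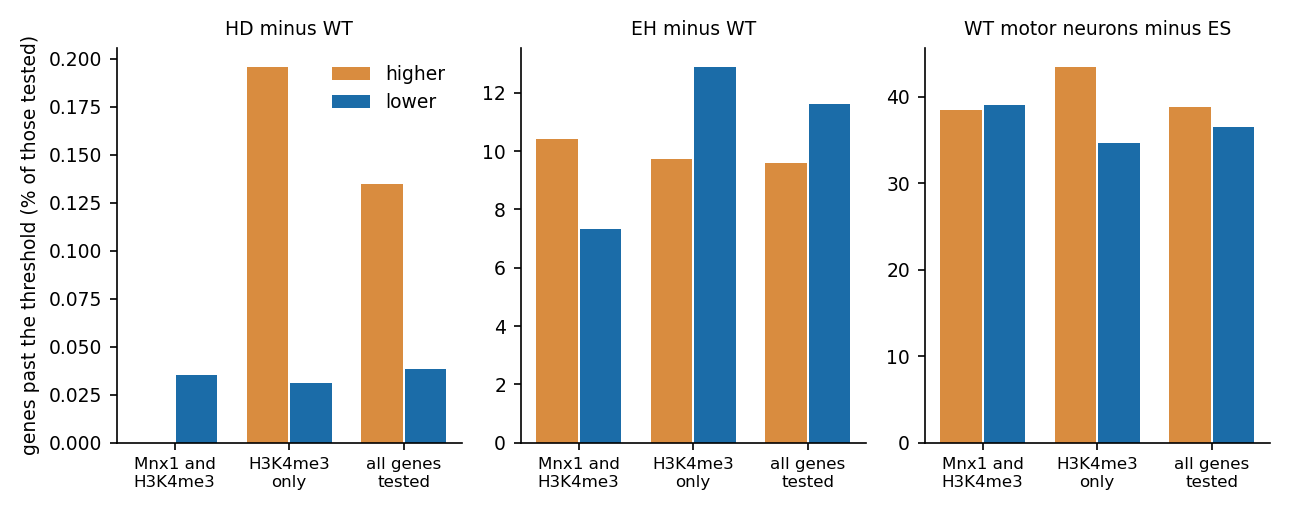
Share of tested genes past an edgeR adjusted p of 0.05 (vertical axis, %; each panel has its own scale, from 0), higher (orange) or lower (blue), for genes with an Mnx1 region at an H3K4me3 start, genes with H3K4me3 and no Mnx1 region at the start, and all genes tested, in 3 comparisons. Genes with Mnx1 were called in EH at 17.7% against 21.2% of all genes, and in the comparison with ES cells at 77.5% against 75.3%.

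Among the named genes higher in motor neurons, Mnx1 was at 440 and 397 CPM in WT motor neurons and 0.588 and 0.498 in ES cells (9.55 ± 0.22 on the log2 scale, edgeR adjusted p = 9.23e-08). Chat was at 168 and 128 CPM against 0.126 and 0.0649 (10.50 ± 0.29, edgeR adjusted p = 1.16e-07), Hoxb5 at 214 and 246 against 0.231 and 0.173, and Myt1 at 204 and 196 against 0.105 and 0.0216. Crp, at 15.2 and 13.7 CPM, and Uts2b, at 9.82 and 7.47, had no count in either ES library. Slitrk1, at 67.3 and 57.0 CPM, and Nhlh2, at 25.6 and 27.4, had 1 and 2 counts in all in ES cells. Of the genes lower in motor neurons, Jam2, a junctional adhesion molecule, was at 4.61 and 3.97 CPM against 190 and 162 in ES cells (-5.38 ± 0.22, edgeR adjusted p = 3.53e-07). Spry2, a receptor tyrosine kinase inhibitor, was at 8.28 and 7.33 against 123 and 118 and Chek2, a DNA damage checkpoint kinase, at 4.14 and 4.32 against 68.1 and 68.5. Vwa3b had 1 count over both WT libraries and 13.7 and 7.79 CPM in ES cells, and Dok2, Pmel and Exoc3l were below 2 CPM in WT motor neurons and above 13 in ES cells. For Hoxb5, Jam2, Dok2, Pmel and Exoc3l the strand was not known, and either gene end stood for the start.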

How the data were processed

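Groups were taken from the labels. The submitters' processing notes name mm10 and, among other tools, MACS2 and RSEM, with roles and versions not given in the sources used here. The deposited peak lists give each region's fold enrichment as a ratio, its -log10 q and, in narrow lists, its summit. Each mark has a single list per genotype. Per the file headers, the RNA files hold expected counts and TPM per gene (11167544 to 53223300 expected counts per library). Entries with the same start and end were merged, keeping the highest fold (5943 Mnx1 entries gave 5793 regions). Gene starts came from RefSeq promoters (GRCm38.p6, 17492 of 21887 coding genes) and otherwise from both gene ends; 2854 of 2895 genes matched an RNA identifier. Rounded counts were tested with edgeR 4.0.16 (quasi-likelihood, TMM, filterByExpr, Benjamini-Hochberg) in R 4.3.3: 1 fit of 6 motor neuron libraries (15565 genes) and 1 of 8 (17770 genes). Standard errors were derived from the log2 fold change and the F statistic. CPM values of motor neurons come from the fit of 6 libraries, except beside ES cells. Alternatives included DESeq2 1.42.0. Genes named were the 12 members of highest fold, 3 on either side of the rule's edge, the 6 largest changes each way among motor neurons (1 CPM) and 8 against ES cells (5 CPM) with libraries that did not overlap, the 5 of highest TPM and up to 3 per list. Members, lists and rules were chosen with earlier results of these data known. Some named items are not reported here.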

Additional observations from a re-analysis of the deposited data

Results flagged for a closer look

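The 2 lines labelled Mnx1KO differed from each other at 14 of the genes named for a change in the lines (Mnx1 included), all with Mnx1 at an H3K4me3 start, by the edgeR test of HD minus EH (2 libraries each, values as log2 fold changes with SE). For Lamc1, Mafa and Mpzl2 either gene end stood for that start. Lower in HD than in EH were Uts2b (-2.65 ± 0.27, adjusted p = 0.00359), Arhgap36 (-2.59 ± 0.16, 0.00169), Lamc1 (-1.71 ± 0.35, 0.0173), Nhlh2 (-1.50 ± 0.30, 0.0161), Lix1 (-1.15 ± 0.14, 0.00519), Sall1 (-1.09 ± 0.10, 0.00296) and Mnx1 itself (-0.61 ± 0.15, 0.0294). Higher in HD by the same edgeR test were Mafa (4.46 ± 0.12, adjusted p = 5.53e-05), Pinlyp (2.57 ± 0.54, 0.0196), Crlf2 (1.83 ± 0.27, 0.00769), Id4 (1.77 ± 0.15, 0.00245), Mpzl2 (1.55 ± 0.37, 0.029), Tmem116 (1.45 ± 0.28, 0.0153) and Slitrk1 (0.42 ± 0.12, 0.0457). Of the genes named from the role lists, 13 more differed by the same edgeR test, which called 21.2% of all genes and 18.4% of member genes. Lower in HD were Lin28a (-1.04 ± 0.20, adjusted p = 0.0147), Meis1 (-0.80 ± 0.19, 0.0289), Sall4 (-0.65 ± 0.15, 0.0244), Eif2ak3 (-0.64 ± 0.14, 0.0222), Mrpl10 (-0.50 ± 0.08, 0.0107), Psmb3 (-0.42 ± 0.08, 0.0147), Mtf2 (-0.40 ± 0.08, 0.0197) and Kmt2a (-0.37 ± 0.10, 0.0475). Higher in HD, again by edgeR, were Hoxa5 (1.55 ± 0.13, adjusted p = 0.0022), Hoxc6 (1.33 ± 0.19, 0.00748), Hoxb5 (1.22 ± 0.28, 0.0253), Jund (1.33 ± 0.09, 0.00169) and Fosl2 (1.00 ± 0.20, 0.0158). Among the genes named against ES cells, Spry2 was lower in HD too (-0.99 ± 0.16, edgeR adjusted p = 0.00923). Most of the first 14 genes were named for their change in EH, so a difference between the lines was likely to follow. Trophoblast marker levels (397 to 527 TPM in HD, 21.5 to 80.8 in EH) and depth moved with the lines, and their part was not tested.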

How the results depend on the processing

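The member count stayed within 1.5 times under every alternative run. Counting gene starts within 2 kb put 82.1% of members at a start, and known strands alone 67.2% (an alternative chosen after seeing the data). Asking for an overlap of 50% of the Mnx1 region with the mark gave, in WT, 86.8% for H3K27ac, 14.6% for H3K4me1 and 3.56% for H3K27me3, and in HD 95.7%, 88.0%, 10.3% and 0.991% for H3K4me3, H3K27ac, H3K4me1 and H3K27me3. H3K4me3 in HD was at 98.2% of members with at least 50% of their length in H3K4me3 and 98.4% of those with H3K4me3 of -log10 q of 10 or more. Genes called in HD numbered 18 by DESeq2 (0.638%, against 1.17% of all genes). With RLE size factors 0 were called (99 at an unadjusted p under 0.05), against 20 of all genes (0.128%). Starts within 2 kb gave 2, where 0.173% of all genes were called. Without a filter on low counts there were 11 (0.386%, 0.543% of all). With a replicate block 0 were called among members (83 unadjusted) and 0 over all genes. A fit of HD and WT alone gave 42 (1.49%, 2.21% of all). The count in HD also moved when 1 library was left out. In EH a fit of the 2 groups gave 260 (9.19%, 12.9% of all), the replicate block 284 (10.1%, 13.4% of all) and leaving out 1 library 7 to 1062. For both lines DESeq2 gave 104 (3.69%, 6.39% of all), no filter 73 (2.56%, 3.64% of all), the replicate block 1 and leaving out 1 library 0 to 580. Replicate numbers are shared in the labels but do not pair the samples (correlation of deviations 0.207 for HD and WT, -0.146 for EH and WT). No alternative moved the count of 2199 against ES cells by over 1.5 times. Leaving out a library leaves its group with 1, assumed to vary like the others. The causes were not tested. No named gene reversed its direction. Depth limits the genes near 1 CPM, and 33 member genes were too low to test among motor neurons.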
